A study of Homo sapiens with 4 samples.

Results

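The AlkB family with FTO was followed in m6A-seq of human cells with and without knockdown of one of its members, ALKBH5. The members were all rows of the deposited count tables with the gene symbols ALKBH1 to ALKBH8 or FTO, summed over the transcripts listed for each gene, which gave 9 genes of 14911. The cells were HEK293T, a human embryonic kidney line expressing large T antigen of the virus SV40. One population carried a control shRNA (shCTL) and the other an shRNA against ALKBH5 (shALKBH5, shA5), and both were exposed to X-rays (10 Gy in the methods). The shRNA against ALKBH5 was delivered with the lentiviral vector pLKO.1 and uninfected cells were removed with puromycin, while the vector of the control and whether the cells were clones are not given in the sources used here. From the poly(A) RNA of each population a library of fragmented RNA (input) and a library of the same RNA after immunoprecipitation with an m6A antibody (m6A-IP) were sequenced. There was 1 library per group and therefore no test between the populations, and all 4 libraries were from irradiated cells, so the effect of the X-rays themselves was not measured. The time of harvest and which of 2 listed shRNAs was used for these libraries are not given in the sources used here. The comparison asks whether the loss of RNA was particular to ALKBH5 and whether the RNA of any relative was higher in shA5.

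AlkB proteins are dioxygenases that use iron and 2-oxoglutarate to oxidise methyl groups or related groups off nucleic acids and proteins. ALKBH5 and FTO are the 2 members known to remove m6A from mRNA, the most common internal modification of mRNA, and FTO also acts on m6Am beside the cap. ALKBH2 and ALKBH3 remove alkyl damage from DNA, ALKBH1 and ALKBH8 act on tRNA, ALKBH4 acts on actin, ALKBH7 is a mitochondrial protein, and the role of ALKBH6 is little known.

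The 2 shRNAs listed by the study are shown because they define what the knockdown could reach. Each line gives the sense target site from 5′ to 3′, with the 7 letters that pair with bases 2 to 8 of the guide strand (the seed match) in capitals.
shALKBH5-1: gaaaggctgttggCATCAATa
shALKBH5-2: cctcaggaagacaAGATTAGa
The site of shALKBH5-1 lies in the 3′ UTR of ALKBH5, in exon 4 of 4 on the plus strand (hg38, chr17:18208616-18208636). The site of shALKBH5-2 lies in the coding sequence and spans the junction of exons 2 and 3 (chr17:18195027-18206826, with the intron inside this span). Among the transcripts of 14824 counted genes neither site had an exact match outside ALKBH5. The fewest mismatches of a relative to shALKBH5-2 were 6, in ALKBH1. With at most 3 mismatches in 21 bases, shALKBH5-1 matched 2 other genes, ALKBH8 and FGD3. The ALKBH8 site is printed because it lies within the family. It sits in the coding sequence, in exon 10 of 12 on the minus strand (chr11:107522313-107522333), with the letters that match shALKBH5-1 in capitals.
ALKBH8: GAAAGtaTcTTGGCATCAATA
Counted from the 5′ end of the sense site, the differences are G6T, C7A and G9C, with the base of shALKBH5-1 first, and the seed match is complete. The fewest mismatches of any other relative to shALKBH5-1 were 7, in FTO. The long 3′ UTR of the most-counted FTO transcript (10029 bases) holds the seed match of shALKBH5-1 at 2 places, on the plus strand at chr16:54117938-54117958 and chr16:54118054-54118074, printed here with the seed match in capitals.
FTO first: cgcatttacttttCATCAATc
FTO second: tttagacaaaattCATCAATt
Apart from these 7 letters the FTO sites are unlike the shRNA, with 10 of 21 letters shared at each. Of the 4 listed FTO transcripts, 1 holds the seed match of shALKBH5-1 in its 3′ UTR. The letters CATCAAT occur in 6.23% of 27760 counted 3′ UTRs, and AGATTAG in 5.8% of them. These shares are over UTRs of all lengths, and a UTR as long as that of FTO is more likely to hold any given 7 letters. No other relative had either seed match in the 3′ UTR of its most-counted transcript. A match of letters is a description of these windows and no evidence of silencing.

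Counts per gene were divided by the total count of the library to give CPM, that is counts scaled to a common library size. Library totals were 2237819 (input) and 3944402 (m6A-IP) for shCTL and 1311390 (input) and 3148119 (m6A-IP) for shA5, so the shA5 input set the precision. Intervals are exact 95% intervals for counting error only: they do not cover differences between cultures, and reads without molecular identifiers are not independent molecules. The label of the cells was checked with markers: of 10 markers of blood, endothelium, fibroblasts, liver and keratinocytes, 8 were not listed and PECAM1 and LUM had at most 2 counts per library. Among genes used as markers of HEK293T, NES and NEFL were well counted, PAX2 had 1 count in all and VIM had 2 to 8 counts per library. Levels were limited in another way, since GAPDH had 34.9 CPM in the shCTL input against 580.5 CPM for ACTB, and the reason was not tested. Levels of different genes are therefore given only per kilobase of transcript and are not ranked further.

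ALKBH5 RNA was lower in shA5, in the input and in the m6A-IP alike. ALKBH5, the nuclear m6A demethylase that the shRNA targets, lies on chr17:18183078-18209954, plus strand. Its input counts were 486 (217 CPM) for shCTL and 145 (111 CPM) for shA5, and its m6A-IP counts were 1432 (363 CPM) for shCTL and 589 (187 CPM) for shA5. Both shA5 libraries were thus lower than their shCTL counterparts, and the counting intervals of each pair did not overlap. The input level in shA5 was 50.9% of that in shCTL, a log2 change of -0.97 (interval -1.25 to -0.70), and the m6A-IP level was 51.5%, a log2 change of -0.95 (interval -1.10 to -0.82). Log2 changes were taken on CPM plus 0.5, and intervals on the counts alone. Of 5320 genes averaging 50 or more counts per library, 70 (1.32%) had an input change as low or lower, and 34 (0.639%) an m6A-IP change as low or lower. Such counts, here and below, include the gene itself. Nearly all ALKBH5 counts came from 1 transcript, ENST00000399138, with 485 input counts for shCTL and 145 for shA5. In bulk RNA, a lower level in every cell and a loss in some of the cells cannot be told apart.

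**Figure D1:**
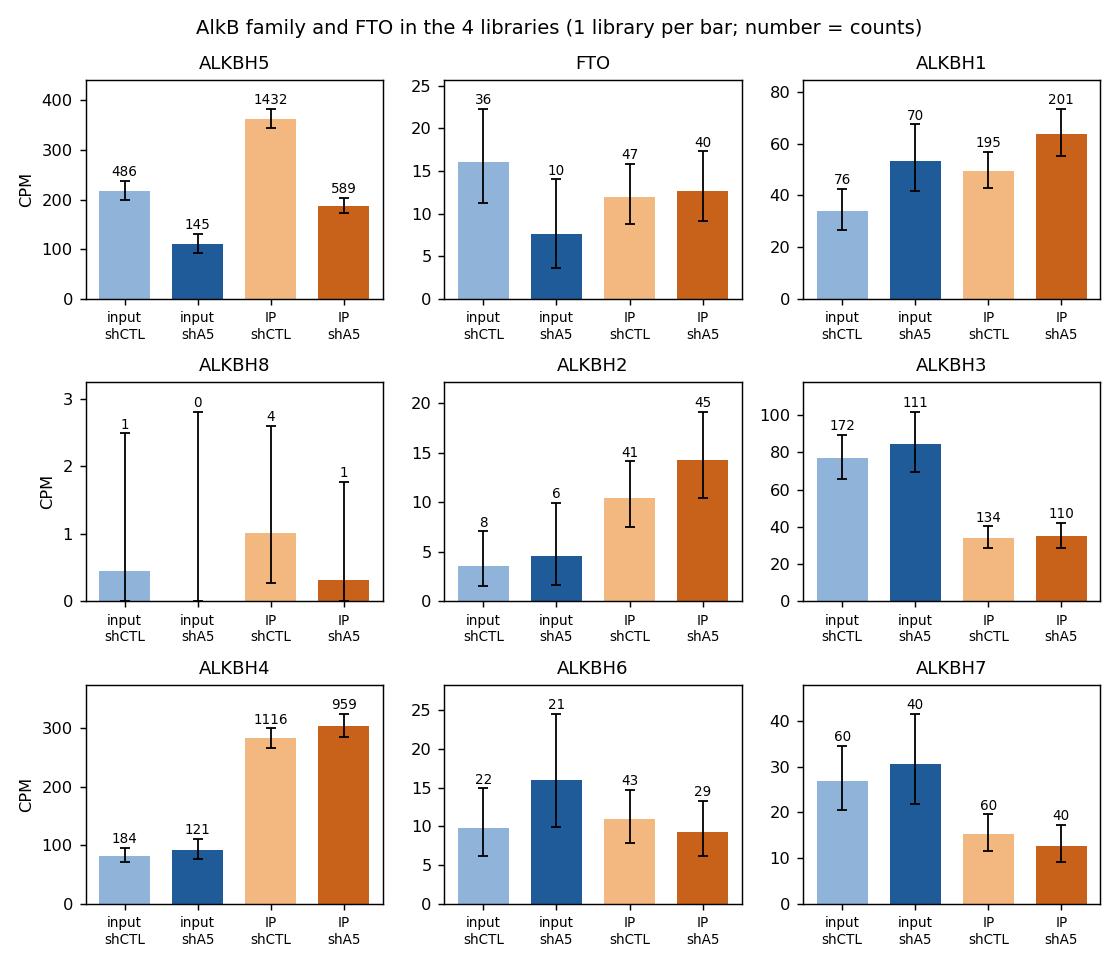
CPM of the 9 members in the 4 libraries, 1 bar per library (input in blue, m6A-IP in orange, shA5 in the darker shade), with exact 95% counting intervals and the count above each bar; each panel has its own axis from 0. ALKBH5 was lower in shA5 in both the input (111 against 217 CPM) and the m6A-IP (187 against 363 CPM), and FTO was lower in the input alone (7.63 against 16.1 CPM).

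FTO, the other m6A demethylase, was also lower in the shA5 input, on few counts, and was not lower in the m6A-IP. It lies on chr16:53701692-54158512, plus strand. Its input counts were 36 (16.1 CPM) for shCTL and 10 (7.63 CPM) for shA5, and its m6A-IP counts were 47 (11.9 CPM) for shCTL and 40 (12.7 CPM) for shA5. Only the shA5 input stands low, and its interval of 3.66 to 14 CPM overlaps those of the other 3 libraries. The log2 change of the input was -1.03, and -1.08 without the pseudocount, with an interval of -2.25 to -0.036 whose upper end lies close to 0. The log2 change of the m6A-IP was 0.089 (interval -0.55 to 0.73). FTO had too few counts to be among the 5320 genes. In the band of 3949 genes with a mean of 10 to 50 counts, 324 (8.2%) had an input change as low or lower, and the interval lay below 0 in 6.15% of genes. The input counts of the 4 listed FTO transcripts were 16 and 3, 10 and 3, 8 and 4, and 2 and 0 in shCTL and shA5. These are raw counts from libraries of unequal depth and too few to compare by transcript. The seed matches lie in the 3′ UTR of the transcript with 16 and 3 counts alone. How far they bear on the FTO change was not tested.

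Of the DNA repair members, neither ALKBH2 nor ALKBH3 showed a change larger than the counting error. ALKBH3 (chr11:43880811-43920274, plus strand) removes alkyl groups from single-stranded nucleic acid and works with the ASCC helicase complex. It had 172 counts (76.9 CPM) and 111 counts (84.6 CPM) in the shCTL and shA5 inputs, and 134 counts (34 CPM) and 110 counts (34.9 CPM) in the m6A-IPs. The 2 populations overlapped in both kinds of library, with a log2 change of 0.14 in the input (interval -0.22 to 0.49) and 0.04 in the m6A-IP (interval -0.34 to 0.42). The upper end of the input interval allows a rise of up to 1.41-fold. ALKBH2 (chr12:109088188-109093631, minus strand), which repairs double-stranded DNA, had 8 counts (3.57 CPM) and 6 counts (4.58 CPM) in the shCTL and shA5 inputs, and 41 counts (10.4 CPM) and 45 counts (14.3 CPM) in the m6A-IPs. At that depth the input interval of -1.45 to 2.07 allowed a rise of up to 4.21-fold, so a change of ALKBH2 in the input was not detectable in either direction. The m6A-IP was more precise, with a log2 change of 0.44 (interval -0.18 to 1.11). One ALKBH2 transcript, ENST00000619381, had 12 counts in the shA5 m6A-IP and 0 in the other 3 libraries. It has 1 base that no other ALKBH2 transcript holds, so the division of reads among ALKBH2 transcripts is uncertain.

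Of the tRNA members, ALKBH1 was higher in shA5 and ALKBH8 was barely counted. ALKBH1 (chr14:77672404-77708023, minus strand), which demethylates and oxidises tRNA in cytoplasm and mitochondria, had input counts of 76 (34 CPM) for shCTL and 70 (53.4 CPM) for shA5. Its m6A-IP counts were 195 (49.4 CPM) for shCTL and 201 (63.8 CPM) for shA5. Both shA5 libraries were thus the higher of their pair, although the interval of each overlapped that of its counterpart. The log2 change of the input was 0.64 (interval 0.16 to 1.14), that is 157% of the shCTL level, and that of the m6A-IP was 0.37 (interval 0.078 to 0.66), that is 129%. Input intervals above 0 were found for 12.9% of the 5320 genes and m6A-IP intervals above 0 for 18.9%, and an input change as high or higher for 135 genes (2.54%). Intervals that cover counting error alone therefore exclude 0 often between these populations. ALKBH8 (chr11:107502727-107565742, minus strand), which methylates wobble uridines of tRNA, had input counts of 1 for shCTL and 0 for shA5, and m6A-IP counts of 4 for shCTL and 1 for shA5. Counts of 3 or fewer amount to at most 1.34 CPM (shCTL) and 2.29 CPM (shA5) in the inputs, so no fold was taken, and the 3-mismatch site of shALKBH5-1 in ALKBH8 could not be followed up.

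ALKBH4, ALKBH6 and ALKBH7 showed no change beyond the counting error. ALKBH4 (chr7:102456238-102464863, minus strand), which demethylates actin, had 184 counts (82.2 CPM) and 121 counts (92.3 CPM) in the shCTL and shA5 inputs, and 1116 counts (283 CPM) and 959 counts (305 CPM) in the m6A-IPs. It was the relative with the most counts, and its log2 changes of 0.17 in the input (interval -0.18 to 0.51) and 0.11 in the m6A-IP (interval -0.019 to 0.23) allow rises of up to 1.42-fold and 1.17-fold. ALKBH7 (chr19:6372794-6375250, plus strand), a mitochondrial protein involved in fat metabolism and programmed necrosis, had 60 counts (26.8 CPM) and 40 counts (30.5 CPM) in the shCTL and shA5 inputs, and 60 counts (15.2 CPM) and 40 counts (12.7 CPM) in the m6A-IPs. Its log2 changes were 0.18 (interval -0.43 to 0.79) and -0.25 (interval -0.87 to 0.34), opposite in sign and both within the counting error. ALKBH6 (chr19:36009120-36014239, minus strand) had 22 counts (9.83 CPM) and 21 counts (16 CPM) in the shCTL and shA5 inputs, and 43 counts (10.9 CPM) and 29 counts (9.21 CPM) in the m6A-IPs. Its input log2 change was 0.68, yet the interval of -0.23 to 1.63 includes 0, the m6A-IP went the other way (-0.23, interval -0.97 to 0.47), and 519 of 3949 genes (13.1%) with similar counts had an input change as high or higher. Exons of other genes overlap those counted for ALKBH4 (ORAI2), ALKBH5, ALKBH7 (PSPN) and FTO on the opposite strand and for ALKBH6 on the same strand. Since neither the use of strand in counting nor the rule for shared reads is given in the sources used here, reads of such pairs cannot be told apart.

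**Figure D2:**
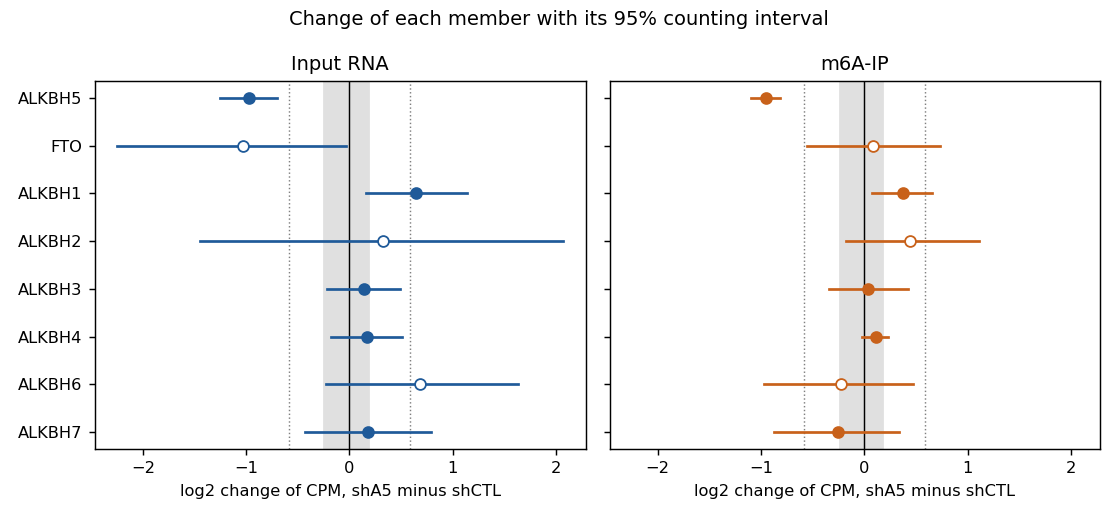
Log2 change of CPM, shA5 minus shCTL, for the input (left) and the m6A-IP (right), with exact 95% counting intervals; filled points have a mean of at least 50 counts, open points 10 to 50, the grey band is the range between the quartiles of 5320 genes and the dotted lines mark 1.5-fold. ALKBH5 lies at -0.97 and -0.95 in the 2 panels, FTO at -1.03 and 0.089, and the interval of ALKBH1 lies above 0 in both.

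Counted by a 1.5-fold threshold, 4 relatives (ALKBH1, ALKBH3, ALKBH4 and ALKBH7) had a mean of at least 50 counts, ALKBH7 exactly at that limit. In the input, 0 of these 4 were at least 1.5-fold lower in shA5, where 6.43% of the 5320 genes were, and 1 (ALKBH1) was at least 1.5-fold higher, where 3.44% of genes were. In the m6A-IP, 0 of 4 were lower by that much (4.89% of genes) and 0 of 4 higher (2.58% of genes). The median input change of these 4 relatives was 0.17 against -0.02 over all 5320 genes, with a range of 0.14 to 0.64, and the median m6A-IP change was 0.073 against -0.016. Of the 3 relatives with a mean of 10 to 50 counts, FTO was at least 1.5-fold lower in the input, as were 20.7% of the 3949 genes in that band, and ALKBH6 was at least 1.5-fold higher, as were 17.2%. Changes of that size were thus common among genes with so few counts.

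The change of ALKBH5 was then set against that of each relative in the same libraries, as a difference of log2 changes without pseudocount, with ALKBH8 left out for its few counts. A negative value means that ALKBH5 was the lower. In the input the difference was -1.63 from ALKBH1 (interval -2.19 to -1.06), -1.11 from ALKBH3 (interval -1.56 to -0.66) and -1.14 from ALKBH4 (interval -1.58 to -0.70). It was -1.68 from ALKBH6 (interval -2.65 to -0.70) and -1.16 from ALKBH7 (interval -1.83 to -0.48). For ALKBH2 and FTO the interval included 0, at -1.33 (interval -3.07 to 0.50) and 0.10 (interval -0.98 to 1.31), so neither could be separated from ALKBH5 in the input. In the m6A-IP the interval for FTO excluded 0, with a difference of -1.05 (interval -1.70 to -0.39). The m6A-IP differences from the 6 remaining relatives ran from -1.42 for ALKBH2 to -0.70 for ALKBH7 (interval -1.32 to -0.064), and among these only the interval for ALKBH6 reached 0 (-0.71, interval -1.44 to 0.034).

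ALKBH5 was the only member whose interval lay below 0 in both kinds of library. Over the 5320 genes, intervals lay below 0 for 15.6% in the input and for 21.6% in the m6A-IP. Of the 5320 genes, 5 including ALKBH5 were at least as low as ALKBH5 in both the input and the m6A-IP. The other 4, which lie outside the family and were named after their values were seen, were AC099489.1, COL27A1, HMGN5 and MRC2. Among 2491 genes averaging 200 or more counts, the genes whose pair of changes lay nearest to that of ALKBH5 were AC099489.1 (-0.98 in the input and -0.99 in the m6A-IP), NOG (-0.97 and -0.89), NES (-0.90 and -0.91), NOTCH3 (-0.90 and -0.78) and SPON1 (-0.79 and -0.90). A fall at least as large as that of ALKBH5 in both libraries was therefore found in few genes but not in ALKBH5 alone. NES, a marker of the cell line, fell slightly less than ALKBH5 in both, with an input interval of -1.19 to -0.62. How many genes fell as far as NES was not counted. Whether the genes named here share anything with ALKBH5 was not tested.

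**Figure D3:**
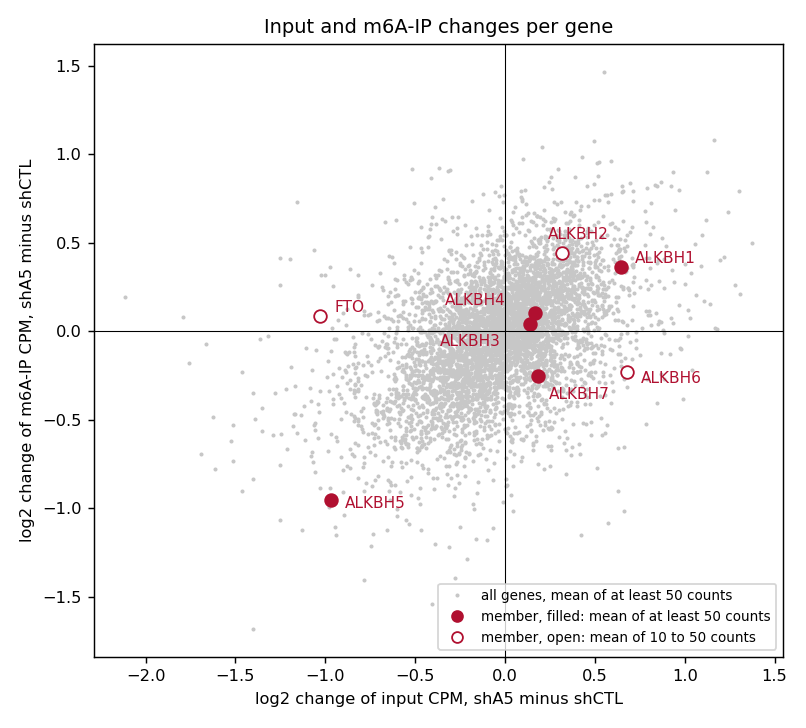
Log2 change of input CPM (x axis) against log2 change of m6A-IP CPM (y axis), shA5 minus shCTL, for 5320 genes averaging 50 or more counts (grey) and 8 members (red, open where the mean was 10 to 50 counts); ALKBH8 is left out. ALKBH5 sits at the lower left with both changes near -1, and FTO lies to the left on the input axis alone.

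The m6A of the members' own transcripts was read as m6A enrichment, the log2 ratio of m6A-IP to input CPM. Enrichment differed widely within the family. ALKBH4 had the highest enrichment, at 1.78 in shCTL (interval 1.56 to 2.02) and 1.72 in shA5 (interval 1.45 to 2.01), higher than 99.7% and 98.6% of the 5320 genes. ALKBH3 had the lowest value, at -1.17 in shCTL (interval -1.51 to -0.84) and -1.26 in shA5 (interval -1.67 to -0.88), with 12.4% of genes below it in each. The intervals of ALKBH3 and ALKBH4 do not overlap in either population, while those of ALKBH3 and ALKBH7 do. The quartiles over all genes in shCTL were -0.73 and 0.52. ALKBH5 transcripts were moderately enriched, at 0.74 in shCTL and 0.76 in shA5, a change of 0.016 (interval -0.29 to 0.33). The interval of this change includes 0, so no difference in the enrichment of ALKBH5 RNA relative to other genes was detectable. Each library was scaled to its own total, so a change of m6A common to all genes would not show in these values.

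**Figure D4:**
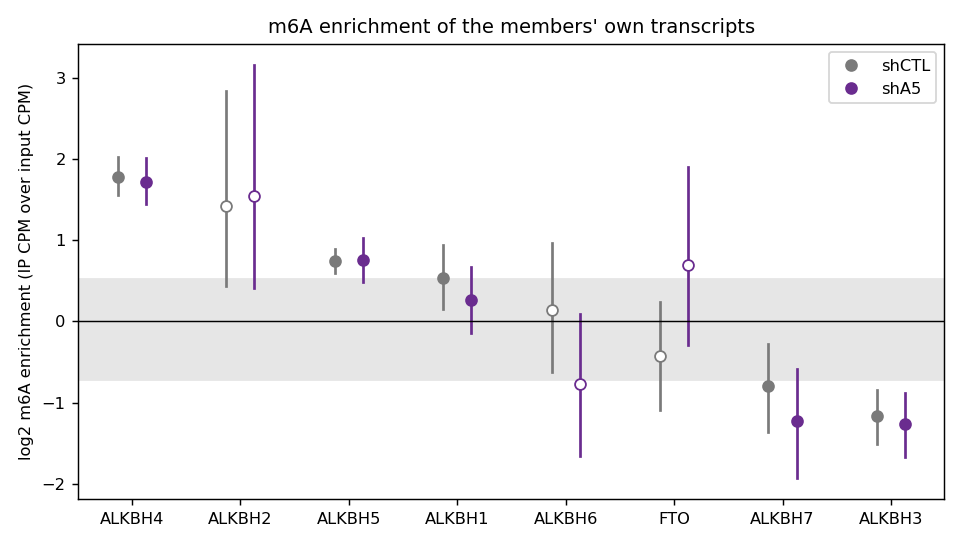
Log2 m6A enrichment (m6A-IP CPM over input CPM) of 8 members in shCTL (grey) and shA5 (purple), with exact 95% counting intervals, ordered by the shCTL value; open points have a mean of 10 to 50 counts and the grey band is the range between the quartiles of 5320 genes in shCTL. ALKBH4 stays near 1.78 and 1.72 and ALKBH3 near -1.17 and -1.26, while the FTO points of -0.42 and 0.70 have overlapping intervals.

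The other members lay between, some with wide intervals. ALKBH2 was at 1.42 in shCTL (interval 0.43 to 2.84) and 1.54 in shA5 (interval 0.41 to 3.16), which overlap those of ALKBH4, and its change was 0.12 (interval -1.75 to 2.03). ALKBH1 went from 0.54 to 0.26, a change of -0.28 (interval -0.86 to 0.29), and ALKBH7 from -0.80 (interval -1.36 to -0.28) to -1.23 (interval -1.93 to -0.59), a change of -0.43 (interval -1.32 to 0.43). FTO went from -0.42 to 0.70, a change of 1.12 (interval -0.092 to 2.51), with 10 counts behind the shA5 input. ALKBH6 went from 0.14 to -0.77, a change of -0.91 (interval -2.14 to 0.25). Of the 4 relatives with a mean of at least 50 counts, 0 were at least 1.5-fold lower in enrichment (5.09% of the 5320 genes) and 0 at least 1.5-fold higher (5.38%). Among the 3 with 10 to 50 counts, ALKBH6 was lower by that much, as were 23.6% of such genes, and FTO higher, as were 22.2%. The median change of the 4 relatives was -0.19 against 0.0036 over all genes.

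Because m6A is deposited mostly in the consensus DRACH, its common form GGACT was searched on the sense strand of each member's most-counted transcript. The windows of ALKBH4, ALKBH5 and ALKBH3 are printed as the members with the highest, a moderate and the lowest enrichment value, with the motif in capitals. ALKBH4 has 3 matches in its coding sequence on the minus strand, in exon 2 (chr7:102459690-102459694), across the junction of exons 2 and 3 (chr7:102457978-102459604) and in exon 3 (chr7:102457831-102457835).
ALKBH4 exon 2: tgctgatcgaGGACTttgtgacccg
ALKBH4 junction: ggaggaagcaGGACTatggccccaa
ALKBH4 exon 3: agtgcaacctGGACTactgccccga
ALKBH5 has 4 matches on the plus strand, of which 2 are in the coding sequence (exon 1, chr17:18184429-18184433, and exon 4, chr17:18208339-18208343) and 2 in the 3′ UTR (exon 4, chr17:18209226-18209230 and chr17:18209818-18209822).
ALKBH5 exon 1: agtatcaggaGGACTcggaccccga
ALKBH5 exon 4: agtcctcagaGGACTgctctgaggc
ALKBH5 UTR first: ctagctagagGGACTggtgtccttc
ALKBH5 UTR second: tctcaagtcgGGACTgcataattaa
ALKBH3 has 2 matches on the plus strand, both in the coding sequence (exon 6, chr11:43889811-43889815, and exon 8, chr11:43901620-43901624).
ALKBH3 exon 6: tggaaacagaGGACTggcatcagag
ALKBH3 exon 8: aggacagcgtGGACTggcacagtga
Per kilobase, GGACT occurred 1.43 times in ALKBH4, 1.27 times in ALKBH5 and 1.3 times in ALKBH3. The family ran from 0.432 per kilobase in FTO, whose 5 matches all lie in the 3′ UTR, to 1.93 in ALKBH1. Over the most-counted transcripts of 14742 genes the quartiles were 0.569, 0.947 and 1.41 per kilobase, and 90.9% held at least 1 match. Which of these sites carried m6A was not measured by counts per gene.

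Per kilobase of transcript, input levels in shCTL and shA5 were 68.9 and 35 RPKM (CPM divided by transcript length in kilobases) for ALKBH5, 49.8 and 54.8 for ALKBH3, 39.3 and 44.1 for ALKBH4, 27.6 and 31.4 for ALKBH7, and 13.1 and 20.6 for ALKBH1. They were 6.8 and 11.1 RPKM for ALKBH6, 4.1 and 2.22 for FTO, 3.2 and 4.16 for ALKBH2, and 0.179 and 0 for ALKBH8. These levels are not ranked, for the reason given above for GAPDH and ACTB.

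Genes that work with the family were taken as 5 lists, to be read beside the shares of all 5320 genes past 1.5-fold: 6.43% lower and 3.44% higher in the input, and 5.09% lower and 5.38% higher in enrichment. Of the m6A and m6Am writers, 8 of 10 had a mean of at least 50 counts, 0 were past 1.5-fold in the input in either direction (median -0.013), and 1 was lower in enrichment. That gene was WTAP, a subunit of the writer complex, with a change of -0.66 (interval -1.17 to -0.17). Its input counts were 100 (44.7 CPM) for shCTL and 80 (61 CPM) for shA5. Its m6A-IP counts were 385 (97.6 CPM) for shCTL and 264 (83.9 CPM) for shA5. In CPM the shA5 input was thus the higher of its pair and the shA5 m6A-IP the lower. Of the alkylation repair genes and partners of ALKBH2 and ALKBH3, 9 of 14 were counted well enough and 0 passed in the input (median -0.023) or in enrichment. Of the tRNA modification enzymes, 9 of 16 were counted well enough, 0 passed in the input (median 0.17) and 1, NSUN3, was lower in enrichment by -0.82 with an interval that includes 0 (-1.71 to 0.026).

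Among the enzymes that supply 2-oxoglutarate or remove metabolites that inhibit these dioxygenases, 11 of 18 were counted well enough (median input change 0.057), 1 was lower in the input and 2 were lower in enrichment. D2HGDH, which oxidises the inhibitor D-2-hydroxyglutarate, had 69 and 24 input counts in shCTL and shA5 (30.8 and 18.3 CPM), a change of -0.74 (interval -1.49 to -0.064). IDH3A, a subunit of mitochondrial isocitrate dehydrogenase, changed in enrichment by -1.01 (interval -1.89 to -0.19), and FH, which removes fumarate, by -0.80 (interval -1.14 to -0.47). Of 41 other 2-oxoglutarate dioxygenases, 17 were counted well enough, 0 passed in the input (median 0.032) and 2 were higher in enrichment. They were TET3, a DNA demethylase, by 0.96 (interval 0.48 to 1.45), and TYW5, a tRNA hydroxylase, by 0.86 (interval 0.16 to 1.58). With so few genes per list, nothing particular to a list was read from these counts.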

How the data were processed

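The authors deposited raw counts, whole numbers per Ensembl transcript, 1 table per library. Per the methods and the labels, reads were handled with bcl2fastq 2.0, FastQC and fastp 0.23.2, aligned to hg38 with HISAT2 and sorted with SAMtools 1.9; StringTie is named for quantification. The program that wrote the counts, the annotation release, the use of strand and the rule for shared reads are not given in the sources used here.

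Counts were summed per gene symbol and divided by library totals (CPM). Changes used a pseudocount of 0.5 CPM. Intervals were exact 95% intervals (Poisson for a CPM, Clopper-Pearson for a ratio, conditional odds ratio for a ratio of ratios). No p-value was computed, since groups had 1 library each. Named genes were all members, up to 4 genes per list past 1.5-fold whose interval excludes 0 (averaging 50 or more counts), and the 5 genes nearest to ALKBH5; NSUN3, COL27A1, HMGN5 and MRC2 were added after their values were seen. The members and lists were chosen with earlier results of these data known. Some marker results are not reported here.

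Sites and motifs were searched in Gencode v44 transcripts (98.1% of counted transcripts matched); the shRNA sequences are from a supplementary table of the study. Python 3.11.15, numpy 2.4.6, pandas 2.3.3, scipy 1.17.1, statsmodels 0.14.6, matplotlib 3.10.9 and R 4.3.3 were used, with DESeq2 1.42.0 and edgeR 4.0.16 for scaling factors only. The steps were tested on simulated data. Alternatives were other scaling factors, pseudocounts of 0.1 and 2 CPM, other count filters, a 2-fold threshold, removal of a GC trend and the most-counted transcript alone.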

Additional observations from a re-analysis of the deposited data

How the results depend on the processing

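No paired analysis was possible because shCTL and shA5 had 1 input and 1 m6A-IP each, and for the same reason no library could be left out. Of 96 member values recomputed under edgeR TMM or DESeq2 factors, other pseudocounts, removal of the GC trend or the most-counted transcript alone, 96 moved by less than their counting interval. The input change of ALKBH5 ran from -0.97 to -0.95, that of ALKBH1 from 0.61 to 0.66, and that of FTO from -1.46 (most-counted transcript alone) to -0.91 (pseudocount of 2 CPM). The enrichment change turned negative for ALKBH5 with the GC trend removed (-0.023) and for ALKBH2 with the most-counted transcript alone (-0.23), both within the counting error. Counts of relatives moved with the filter. With a mean of at least 10 counts, 1 was at least 1.5-fold lower and 2 were higher in the input (12.5% and 9.32% of all genes), and 1 was lower and 1 higher in enrichment (13% and 12.6%). Without a filter these numbers were 2, 2, 1 and 1 (19.9%, 15.3%, 21.4% and 22.7% of genes), and the added one was ALKBH8 at 1 against 0 counts. A minimum mean of 200 counts leaves ALKBH4 as the 1 relative, and 0 were higher in the input (1.08% of genes), as were 0 with a 2-fold threshold (0.47%). Few counts limit ALKBH2, ALKBH6, ALKBH8 and FTO, for a reason that was not tested, and 1 library per group leaves the spread between cultures unmeasured.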

Other observations

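The 21 bases of the shALKBH5-2 target site are the same letters as the forward primer ALKBH5-F listed by the study for quantitative PCR. The primer was not used for any value given here.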
